A study of Mus musculus with 2 samples.

Results

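The 10 genes described here, all of the integrated stress response, were followed in mouse TgS1 cells, an established Schwann cell line with a human TTR V30M transgene. They were 3 eIF2 kinase genes (Eif2ak1, Eif2ak3 and Eif2ak4), 3 genes of stress-response transcription factors (Atf4, Atf5 and Ddit3), the target genes Trib3 and Chac1, and the genes of the 2 regulatory subunits of the eIF2 phosphatase (Ppp1r15a and Ppp1r15b). The members were chosen by name from earlier FPKM values of these same libraries, so their differences between the media are a description and carry no test. The 10 names matched 11 of 55323 rows of the table, because Ddit3 had a second, short row. All 10 genes reached the lower limit used here, 1 FPKM (fragments scaled for gene length and for sequencing depth) in 1 or both libraries, as did 12334 rows in all.

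The SCM library came from TgS1 cells kept for a long time in SCM, an abbreviation that is not explained in the labels. The DMEM library came from the same line, with the same transgene, kept for a long time in DMEM, a basal culture medium that the series text writes as S-DEMEM. Each medium had 1 library here. The replicate numbers in the column names differ between the media, and any other replicates were not analysed here, so the differences below have no replicate check, and p-values were not computed. Nothing in the sources used here gives the length of culture, the passage or whether the line is a single clone. The SCM library held 36666676 reads and the DMEM library 29085791 reads assigned to rows. Of 11 Schwann cell markers, 11 were measured, among them the lineage factor Sox10 at 113 FPKM in SCM and 126 FPKM in DMEM. At least 2-fold higher in SCM were 3 of the 11 markers, and 0 were at least 2-fold lower. Their part in the differences below was not tested. Of 27 markers of fibroblasts, leucocytes, endothelium, neurons and melanocytes, 12 had 0 reads in both libraries and 3 reached 1 FPKM (Pdgfrb, Cd68 and Mitf). The summed level of these lists ran from 0.0277 to 10.7 FPKM in SCM and from 0.0552 to 8.04 FPKM in DMEM.

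The eIF2 kinases respond to different stresses and converge on 1 reaction, the phosphorylation of the alpha subunit of the initiation factor eIF2. This lowers general translation and favours translation of the Atf4 mRNA, whose upstream reading frames otherwise hold ribosomes back from the coding frame. ATF4 then switches on genes for amino acid supply and for feedback, including genes of its own regulators. Schwann cells make large amounts of membrane protein through the endoplasmic reticulum, where PERK, the product of Eif2ak3, senses unfolded protein. The libraries measured RNA alone, and neither eIF2 phosphorylation nor any protein was measured.

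The 10 genes differed in how far SCM lay below DMEM. Atf4, Atf5, Trib3 and Chac1 were at least 2-fold lower in SCM, whereas the 3 kinase genes, Ddit3 and both phosphatase subunit genes lay within 2-fold. None of the 10 was at least 2-fold higher in SCM. In bulk RNA, fewer cells that express a gene and less RNA per cell cannot be told apart. Calls were made on log2((FPKM in SCM + 1) / (FPKM in DMEM + 1)), which understates the ratio of low genes. By this measure 2.80% of all 12334 measured rows were at least 2-fold lower in SCM and 3.10% at least 2-fold higher, and since the choice of the 10 genes used this contrast, nothing is read from their count of 4 lower. Their log2 ratios had a median of -0.41 and all 10 were below 0, while over all measured rows the median was -0.03 and 54.2% were below 0. Folds are given below as ratios of FPKM, each with a 95% exact (Clopper-Pearson) interval in parentheses. These intervals cover counting error alone, and reads amplified by PCR with no molecular identifiers do not count independent molecules. By that interval all 10 genes were lower in SCM, as were 36.3% of all measured rows.

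**Figure D1:**
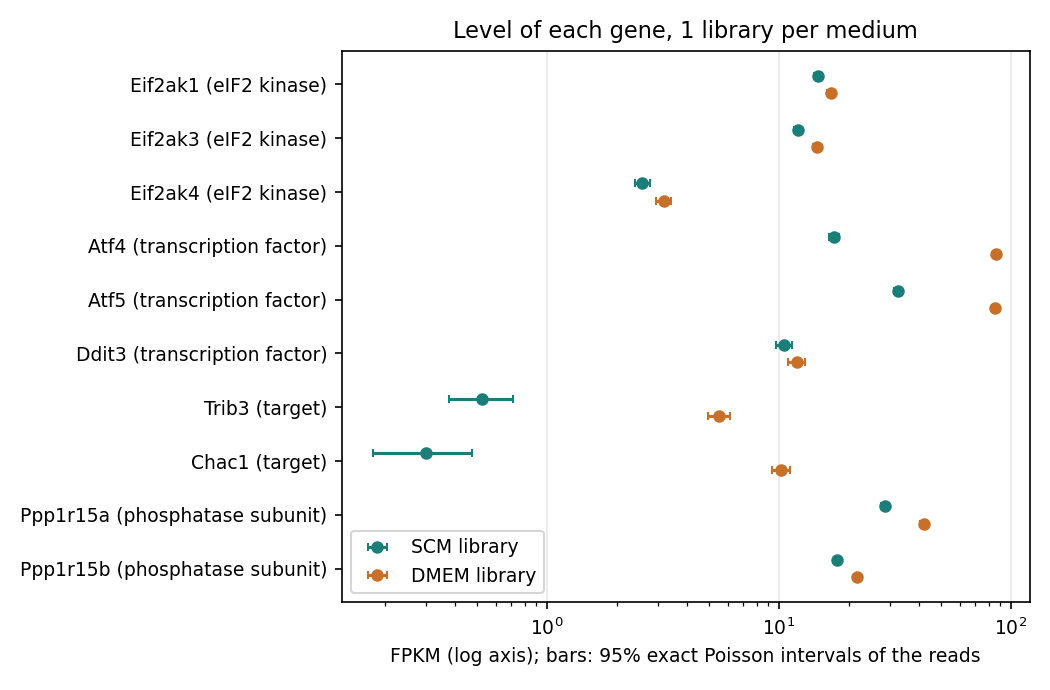
FPKM of each gene in the SCM library (green, upper point of each pair) and the DMEM library (orange, lower point), on a log axis, with 95% exact Poisson intervals of the reads. Chac1 and Trib3 lay under 1 FPKM in SCM and above 5 FPKM in DMEM, while the points of each kinase gene lay close together.

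**Figure D2:**
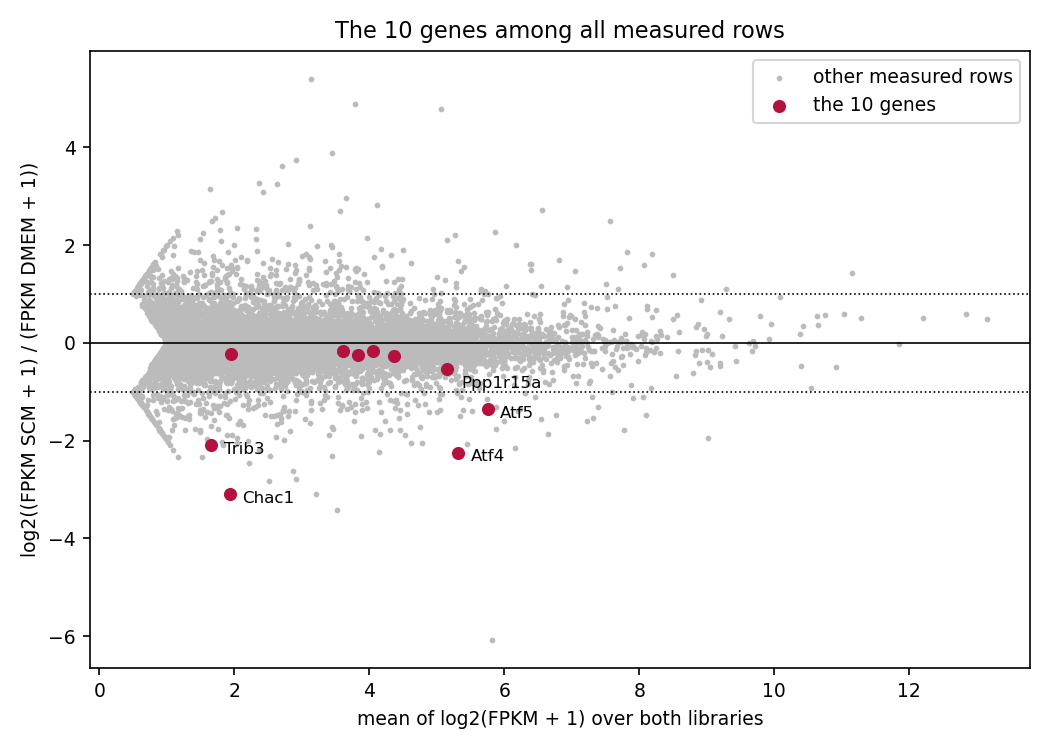
Log2 ratio of SCM over DMEM against the mean log2(FPKM + 1) of both libraries, for all 12334 measured rows (grey) and the 10 genes (red). Dotted lines mark 2-fold, Chac1, Atf4, Trib3 and Atf5 lie under the lower line, and the 5 red points without a name are Ddit3, the 3 kinase genes and Ppp1r15b.

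The kinase genes differed little between the media. Eif2ak1 encodes HRI, the kinase that responds to haem shortage and to mitochondrial stress. It had 14.7 FPKM (3054 reads) in SCM and 16.7 FPKM (2758 reads) in DMEM, 1.14-fold lower in SCM (1.08 to 1.20). Eif2ak3 encodes PERK, which senses unfolded proteins in the endoplasmic reticulum, and had 12.1 FPKM (2675 reads) in SCM and 14.5 FPKM (2543 reads) in DMEM, 1.20-fold lower in SCM (1.13 to 1.27). Eif2ak4 encodes GCN2, which senses uncharged tRNA when amino acids run short. It had 2.57 FPKM (704 reads) in SCM and 3.19 FPKM (691 reads) in DMEM, 1.24-fold lower in SCM (1.11 to 1.38), and was the lowest of the 3 kinase genes in both libraries. The order Eif2ak1, Eif2ak3, Eif2ak4 was the same in both libraries, and per length Eif2ak1 stood 5.71-fold above Eif2ak4 in SCM (5.25 to 6.20) and 5.25-fold above it in DMEM (4.83 to 5.71). The summed level of the 3 genes was 29.4 FPKM in SCM and 34.4 FPKM in DMEM. The fourth eIF2 kinase gene of mammals, Eif2ak2, which encodes the double-stranded RNA sensor PKR and is not among the 10, had 19.1 FPKM in SCM and 18.3 FPKM in DMEM, and the interval of its ratio (0.995 to 1.10) held 1.

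The mRNAs of proteins that act on these kinases lay within 2-fold between the media. Of 7 genes of this group, Eif2ak2 included, all were measured, 0 were 2-fold apart in either direction and the median log2 ratio was -0.02. Gcn1, which GCN2 needs for its activation on ribosomes, had 6.34 FPKM in SCM and 6.94 FPKM in DMEM. Impact, an inhibitor of GCN2, had 11.8 FPKM in SCM and 12.0 FPKM in DMEM. Dele1 and Oma1, which carry mitochondrial stress to HRI, had 3.84 and 5.04 FPKM in SCM, against 3.52 and 5.23 FPKM in DMEM. Dnajc3, which encodes an inhibitor of PERK and PKR, was 1.17-fold higher in SCM (1.12 to 1.24), and the adaptor gene Nck1 had 6.48 FPKM in SCM and 6.69 FPKM in DMEM.

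The mRNAs of the subunits of eIF2, the substrate of the kinases, and of eIF2B were likewise within 2-fold. Of 9 genes of eIF2 and of its exchange factor eIF2B, 9 were measured, 0 were 2-fold lower and 0 were 2-fold higher, with a median log2 ratio of -0.20. Eif2s1, the alpha subunit that the kinases phosphorylate, had 39.8 FPKM in SCM and 46.5 FPKM in DMEM. Eif2s2, the beta subunit, was the farthest apart, at 8.45 FPKM in SCM and 15.7 FPKM in DMEM. The X-linked gamma subunit gene Eif2s3x had 64.5 FPKM in SCM and 62.5 FPKM in DMEM, and its Y-linked copy Eif2s3y 6.04 FPKM in SCM and 4.92 FPKM in DMEM. The eIF2B genes Eif2b1, Eif2b2, Eif2b3, Eif2b4 and Eif2b5 had log2 ratios of -0.20, 0.23, -0.20, -0.36 and -0.06.

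Atf4 and Atf5 were well below their DMEM level in SCM, and Ddit3 was not. Atf4 (ENSMUSG00000042406) had 17.3 FPKM (1496 reads) in SCM and 86.1 FPKM (5903 reads) in DMEM. SCM thus held 20.1% of the DMEM level, and the log2 ratio of -2.25 was the 13th lowest of all measured rows. Atf5 (ENSMUSG00000038539) encodes a related factor tied to mitochondrial and proteasome stress, whose mRNA is also translated preferentially when eIF2 is phosphorylated. It had 32.7 FPKM (2386 reads) in SCM and 85.4 FPKM (4953 reads) in DMEM, 2.62-fold lower in SCM (2.49 to 2.75). The ratio of Atf4 to Atf5, per length, was 0.530 in SCM (0.496 to 0.566) and 1.01 in DMEM (0.970 to 1.05). Both genes were thus level in DMEM, whereas in SCM Atf5 stood above Atf4.

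Ddit3 (ENSMUSG00000025408) encodes CHOP, a factor downstream of ATF4 that promotes cell death under prolonged stress. It had 10.5 FPKM (661 reads) in SCM and 11.9 FPKM (593 reads) in DMEM. Ddit3 was 1.13-fold lower in SCM (1.01 to 1.27), the smallest fold among the 10 genes. The interval of Eif2ak1 (1.08 to 1.20) lay within that of Ddit3, so counting error leaves their order unresolved. Per length, Atf4 stood 1.64-fold above Ddit3 in SCM (1.499 to 1.80) and 7.23-fold above it in DMEM (6.64 to 7.88). The second row named Ddit3 (ENSMUSG00000116429) is 105 bases long, lies wholly within exons of the first on the same strand, and had 0 reads in both libraries, which allows up to 0.779 FPKM in SCM and 0.982 FPKM in DMEM. The sources used here do not say how reads that fell in both rows were counted. These limits hold only if such reads could be assigned to the short row. A further 68 exon bases of Ddit3 lie opposite the methionyl-tRNA synthetase gene Mars1, which is itself lower in SCM, at 19.5 FPKM against 52.0 FPKM in DMEM.

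Other measured genes of the same factor families lay closer together between the media than Atf4 and Atf5 did, though not all closer than Ddit3. Of 16 ATF, CREB and C/EBP genes, 15 were measured, 0 were 2-fold lower, 0 were 2-fold higher and the median log2 ratio was -0.14. Cebpg, which encodes a dimer partner of ATF4, had the lowest ratio of these, with 15.7 FPKM in SCM and 25.3 FPKM in DMEM. Jdp2 and Atf1, both genes of basic leucine zipper factors, had log2 ratios of -0.39 and -0.35. Cebpa was 1.76-fold higher in SCM (1.30 to 2.40), at 1.47 FPKM against 0.835 FPKM in DMEM. Atf3, a stress-induced factor that ATF4 can switch on and that was named after its values were seen, was the most abundant, at 294 FPKM in SCM and 342 FPKM in DMEM.

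Trib3 and Chac1 had the lowest plain FPKM ratios of the 10 genes. Trib3 (ENSMUSG00000032715) encodes a pseudokinase that binds ATF4 and CHOP and damps their activity. It had 0.526 FPKM (41 reads) in SCM and 5.53 FPKM (342 reads) in DMEM, 10.5-fold lower in SCM (7.59 to 14.9). Chac1 (ENSMUSG00000027313) encodes an enzyme that breaks down glutathione. It had 0.300 FPKM (18 reads) in SCM and 10.2 FPKM (484 reads) in DMEM, and SCM thus held 2.95% of the DMEM level, 33.9-fold lower (21.2 to 57.7). Among measured rows its log2 ratio of -3.10 was the 3rd lowest and that of Trib3, -2.10, the 18th lowest. Few reads stand behind the SCM values of both genes, and their log2 ratios depend on the pseudocount, running from -4.68 to -2.00 for Chac1 and from -3.17 to -1.27 for Trib3 over the settings tried.

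In DMEM, Chac1 lay just under Ddit3 and their counting intervals overlapped, whereas in SCM Chac1 was the lowest of the 10, with an interval that overlapped that of Trib3. Relative to Atf4 per length, Chac1 stood at 0.0173 in SCM (0.0102 to 0.0275) and 0.118 in DMEM (0.107 to 0.130), and Trib3 at 0.0304 in SCM (0.0217 to 0.0415) and 0.0643 in DMEM (0.0575 to 0.0717). Both targets were therefore further below their DMEM level in SCM than Atf4 was. Their paralogues lay within 2-fold. Chac2 had 9.46 FPKM in SCM and 10.2 FPKM in DMEM, Trib1 1.57 FPKM in SCM and 2.36 FPKM in DMEM, and Trib2 1.07 FPKM in SCM and 0.880 FPKM in DMEM.

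The phosphatase subunit genes encode the proteins that bring protein phosphatase 1 to eIF2. Ppp1r15a encodes GADD34, the stress-induced subunit that ATF4 can switch on. It had 28.5 FPKM (3068 reads) in SCM and 42.0 FPKM (3584 reads) in DMEM, 1.47-fold lower in SCM (1.40 to 1.55), the largest difference among the 6 genes within 2-fold. Ppp1r15b encodes CReP, the constitutive subunit, and had 17.8 FPKM (3645 reads) in SCM and 21.7 FPKM (3536 reads) in DMEM, 1.22-fold lower in SCM (1.17 to 1.28). Ppp1r15a stood above Ppp1r15b in both libraries, 1.60-fold in SCM (1.53 to 1.68) and 1.93-fold in DMEM (1.84 to 2.02). The catalytic subunit genes Ppp1ca, Ppp1cb and Ppp1cc had log2 ratios of -0.04, 0.05 and -0.06.

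**Figure D3:**
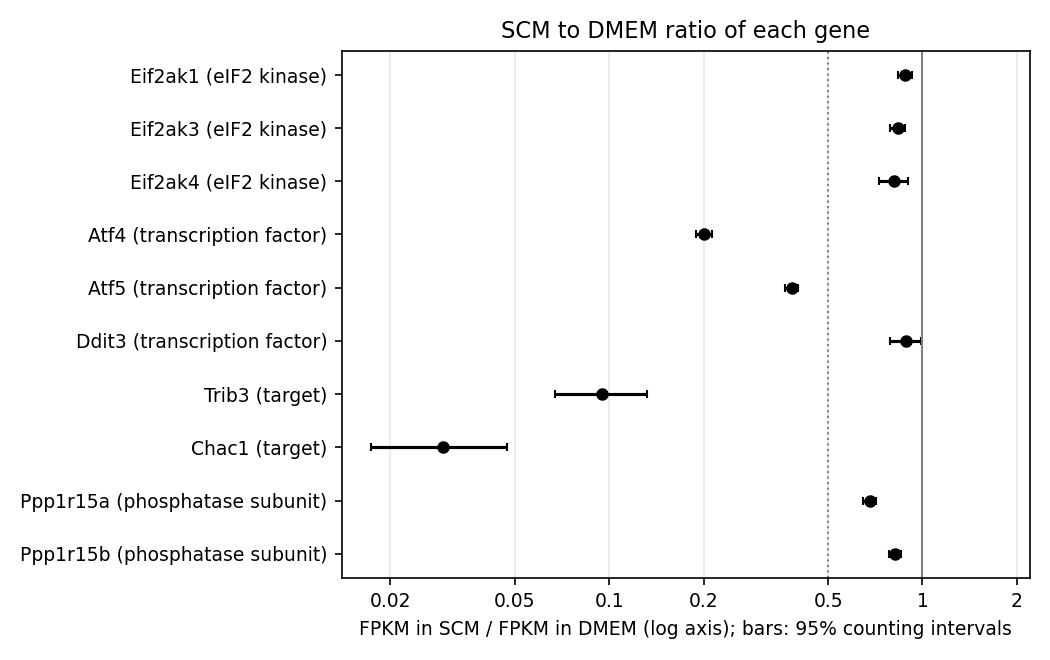
Ratio of FPKM in SCM to FPKM in DMEM for each gene, on a log axis, with 95% exact counting intervals. The solid line marks no difference and the dotted line a ratio of 0.5. The 6 genes to the right of the dotted line run from 0.679 (Ppp1r15a) to 0.884 (Ddit3) and the 4 to its left from 0.0295 (Chac1) to 0.382 (Atf5).

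The 250 bases before each RefSeq start site were searched on both strands for 3 motifs that bind factors of this pathway or general activators. They were the core of the C/EBP-ATF response element (TGATGNAA), which ATF4 binds with a C/EBP partner, the cAMP response element (TGACGTCA) and the CCAAT box (CCAAT). No match in these windows overlapped another. RefSeq windows on GRCm38.p6 matched 9 of the 10 genes, with 11 start sites, all but Ppp1r15b. The first motif was in 1 of the 11 windows and in 3.45% of 32851 windows of all genes, the second in 1 of 11 and in 1.55%, and the CCAAT box in 6 of 11 and in 33.8%. The windows of the target genes with the lowest ratios, of Atf4 itself and of the gene with the cAMP response element are shown 5′ to 3′ on the strand of each gene, with motif matches in capitals.

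Chac1, chr2:119350992-119351241, plus strand: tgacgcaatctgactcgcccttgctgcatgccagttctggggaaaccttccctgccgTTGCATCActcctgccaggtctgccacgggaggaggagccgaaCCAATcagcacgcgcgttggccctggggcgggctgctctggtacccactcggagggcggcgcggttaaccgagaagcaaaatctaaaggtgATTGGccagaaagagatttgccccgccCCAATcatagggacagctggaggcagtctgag

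Trib3, chr2:152344061-152344310, minus strand: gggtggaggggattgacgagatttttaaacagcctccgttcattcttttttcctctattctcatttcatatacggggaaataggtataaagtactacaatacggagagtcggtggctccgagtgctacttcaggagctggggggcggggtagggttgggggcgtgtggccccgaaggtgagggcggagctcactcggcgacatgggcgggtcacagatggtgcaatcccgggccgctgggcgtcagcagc

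Atf4, chr15:80254934-80255183, plus strand: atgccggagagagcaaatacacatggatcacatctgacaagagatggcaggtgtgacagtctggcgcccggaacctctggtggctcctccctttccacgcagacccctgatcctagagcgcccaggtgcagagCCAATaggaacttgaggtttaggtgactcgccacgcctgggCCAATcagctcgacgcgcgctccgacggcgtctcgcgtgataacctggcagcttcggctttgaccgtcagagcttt

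Ppp1r15a, chr7:45526269-45526518, minus strand: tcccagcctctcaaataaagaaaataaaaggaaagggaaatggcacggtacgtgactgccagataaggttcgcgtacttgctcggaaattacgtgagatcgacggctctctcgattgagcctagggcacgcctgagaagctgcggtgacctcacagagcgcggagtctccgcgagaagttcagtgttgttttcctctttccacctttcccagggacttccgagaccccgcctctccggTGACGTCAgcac

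Counted from -1 at the last base before the start, the C/EBP-ATF core of Chac1 lies at -193 to -186 and is read on the other strand, so that it appears as TTGCATCA. The remaining capitals of Chac1 are CCAAT boxes. The window of Trib3, the gene with the next lowest plain ratio, held none of the 3 motifs, and that of Atf4 held CCAAT boxes starting at -117 and -76. The cAMP response element of Ppp1r15a lies at -12 to -5. A match of letters is a description and not evidence of binding, and a window without one says nothing about elements elsewhere.

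**Figure D4:**
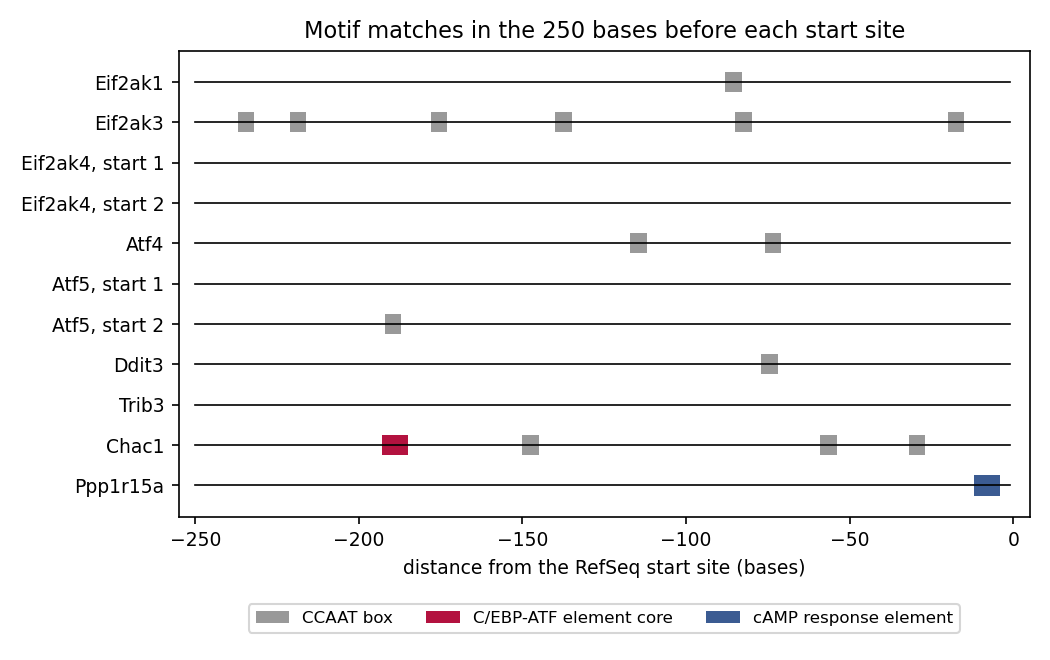
Matches of the 3 motifs in the 250 bases before each of 11 RefSeq start sites of 9 genes, by distance from the start site in bases. The C/EBP-ATF core (red) appears in Chac1 and the cAMP response element (blue) in Ppp1r15a, and CCAAT boxes (grey) appear in 6 windows.

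The order of the levels differed between the media. In SCM, Atf5 was the highest, then Ppp1r15a, Ppp1r15b and Atf4, Eif2ak1, Eif2ak3, Ddit3, Eif2ak4, Trib3 and Chac1. The counting intervals of neighbours overlapped for Ppp1r15b and Atf4 and for Trib3 and Chac1. In DMEM, Atf4 and Atf5 came first with overlapping intervals, then Ppp1r15a, Ppp1r15b, Eif2ak1, Eif2ak3, Ddit3, Chac1, Trib3 and Eif2ak4. Among all measured rows Atf4 ranked 2563 in SCM and 355 in DMEM, and Chac1 12191 in SCM and 4132 in DMEM. Eif2ak1 ranked 3015 in SCM and 2670 in DMEM.

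Over the 2 libraries, the protein-coding row nearest to Atf4 in log2(FPKM + 1) was Asns, the asparagine synthetase gene and a known ATF4 target, at a Euclidean distance of 0.22. Asns had 20.3 FPKM in SCM and 88.1 FPKM in DMEM. The next nearest were the plexin gene Plxnd1, at 23.2 FPKM in SCM and 67.5 FPKM in DMEM, and Slc25a1, the mitochondrial citrate carrier gene, at 25.03 FPKM in SCM and 66.8 FPKM in DMEM. With 2 points per gene this likeness is a description of these libraries.

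Genes listed as targets of ATF4, or in the last list as targets of ATF4 and CHOP, were lower in SCM more often than not. The 4 lists of targets hold 48 genes, of which 39 were measured, 25 were at least 2-fold lower in SCM, 0 were higher and 36 had a log2 ratio below 0. The median was -1.33. Among the 12334 rows that passed the 1 FPKM limit, 2.80% were called lower and 3.10% higher, and 54.2% had a log2 ratio below 0. The lists were written with earlier results of these data known and are no independent evidence of direction.

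Of 14 enzyme genes of amino acid and one-carbon metabolism 12 were measured, with 8 lower, 0 higher and a median log2 ratio of -1.51. Mthfd2, of mitochondrial folate metabolism, had 2.49 FPKM in SCM and 36.4 FPKM in DMEM. Aldh18a1, of proline synthesis, had 1.86 FPKM in SCM and 18.9 FPKM in DMEM, and Pck2, the mitochondrial phosphoenolpyruvate carboxykinase gene, 1.41 FPKM in SCM and 10.01 FPKM in DMEM. Gpt2, an alanine aminotransferase gene named after its values were seen, was the 1 measured gene of this list above 0, at 9.83 FPKM in SCM and 5.61 FPKM in DMEM, 1.75-fold higher in SCM (1.62 to 1.90). Of 9 amino acid transporter genes 6 were measured, with 5 lower and 0 higher and a median of -1.63. The cationic amino acid carrier gene Slc7a1 had 0.991 FPKM in SCM and 9.97 FPKM in DMEM. The large neutral amino acid carrier gene Slc7a5 had 1.28 FPKM in SCM and 8.24 FPKM in DMEM, and its partner gene Slc3a2 64.7 FPKM in SCM and 181 FPKM in DMEM. Slc38a2, which encodes a sodium-coupled neutral carrier, had 9.70 FPKM in SCM and 36.0 FPKM in DMEM.

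The list of synthetases holds 13 of the cytosolic aminoacyl-tRNA synthetase genes and leaves out others. All 13 were measured and all 13 lay below 0 in log2 ratio, with 9 lower, 0 higher and a median of -1.23. Cars, the cysteinyl-tRNA synthetase gene, was the farthest apart, at 4.50 FPKM in SCM and 19.2 FPKM in DMEM. Nars, for asparagine, and Aars, for alanine, had log2 ratios of -1.77 and -1.45. The remaining list, of growth and stress signalling targets of ATF4 and CHOP, was mixed. Of its 12 genes 8 were measured, with 3 lower, 0 higher and a median of -0.55. The secreted glycoprotein gene Stc2 had 1.14 FPKM in SCM and 14.2 FPKM in DMEM, the translation repressor gene Eif4ebp1 6.94 FPKM in SCM and 19.3 FPKM in DMEM, and Sesn2, an inhibitor of mTORC1 signalling, 4.83 FPKM in SCM and 12.3 FPKM in DMEM. The lipoprotein receptor gene Vldlr had a log2 ratio of -0.92. Ddit4 and Bcl2l11, named after their values were seen, were the members of this list above 0, at log2 ratios of 0.85 and 0.58.

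The other branches of the unfolded protein response were measured for comparison, because PERK is their partner branch. Of 18 genes of the IRE1 and ATF6 branches 18 were measured, 0 were 2-fold lower, 0 were 2-fold higher, 9 lay below 0 and the median was -0.01. The chaperone gene Hspa5 was 1.35-fold higher in SCM (1.33 to 1.38) and the lectin chaperone gene Calr 1.28-fold (1.28 to 1.29). Sdf2l1 had 10.8 FPKM in SCM and 8.28 FPKM in DMEM. Herpud1, a degradation factor that the PERK branch can raise as well, had the lowest log2 ratio of the list. It had 4.92 FPKM in SCM and 9.27 FPKM in DMEM.

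**Figure D5:**
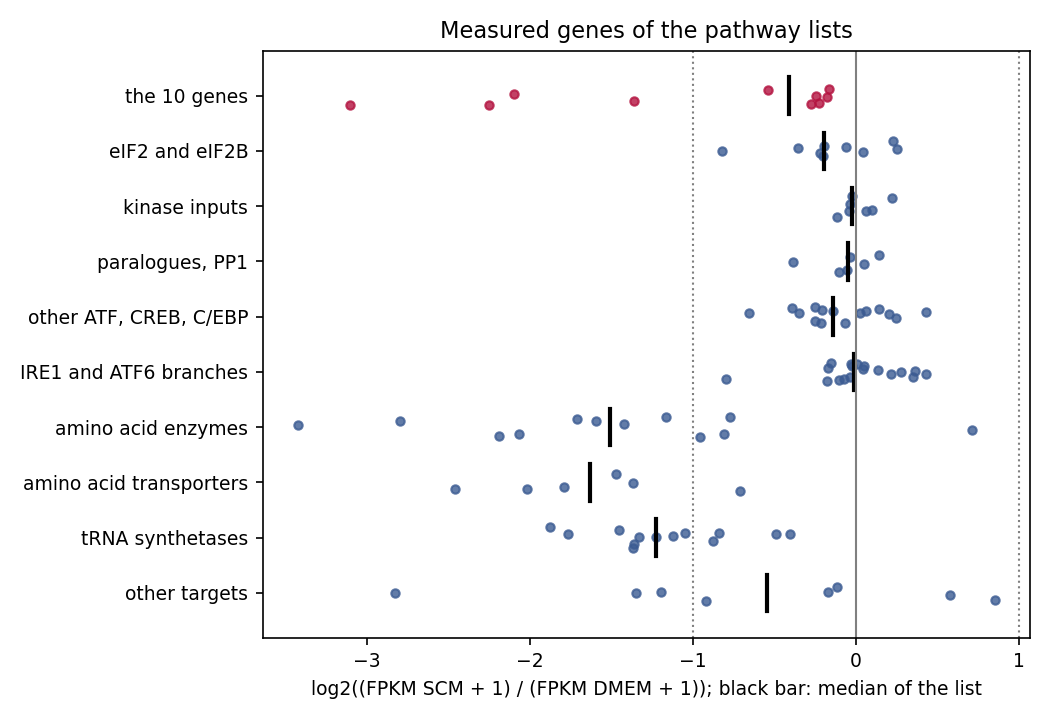
Log2 ratio of SCM over DMEM for every measured gene of each list, with 1 point per gene, the 10 genes in red on top, the median of each list as a black bar and dotted lines at 2-fold. The 4 target lists at the bottom, the synthetases among them, have medians from -1.63 to -0.55. The lists of eIF2, kinase inputs, paralogues, other factors and the IRE1 and ATF6 branches have medians from -0.20 to -0.01.

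Where the genes lie and which rows they overlap were not used in choosing them. Of the 10 genes, Chac1, Trib3 and Eif2ak4 are on chromosome 2, and Atf5 and Ppp1r15a are on chromosome 7. The table lists Atf4 at chromosome 15, 80139385 to 80141742, plus strand, Chac1 at chromosome 2, 119181710 to 119184862, plus strand, and Trib3 at chromosome 2, 152179342 to 152185952, minus strand. None of the 10 had the position that GENCODE M21 gives on GRCm38, although 9 had the same span, so the build of these coordinates could not be settled and none was carried over. In the table, exons of 6 of the 10 genes share bases with another row, and those of Atf4, Trib3, Chac1 and Eif2ak4 share none. For Atf5 the overlap is 82 bases with Nup62, at 8.07 FPKM in SCM and 16.6 FPKM in DMEM, and for Ppp1r15b it is 640 bases, 11.4% of its length, with a row of 49 reads in SCM and 37 in DMEM. The sources used here give no strand setting for the counting, and such reads cannot be told apart. Transcripts of Atf4, Trib3, Chac1, Eif2ak4 and Ppp1r15a shared no word of 31 bases with any other gene of GENCODE M21.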

How the data were processed

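RNA of TgS1 cells was sequenced from 1 SCM and 1 DMEM library, made with a stranded total RNA kit, per the labels' protocols. The authors deposited FPKM values per gene, per the file headers. Trimming tools, the aligner STAR 2.7.9a, the counter featureCounts 2.0.1 and the builds GRCm38.p6 and mm10 are named in the submitters' processing notes, with no strand setting. Columns were matched to samples by the medium in their names.

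FPKM times gene length gave whole multiples of 1 step per library, and whole reads were recovered in 100% of rows within 0.01. Totals were 36666676 reads in SCM and 29085791 in DMEM, and a count of 0 was taken to allow 3 reads. The measure was log2((FPKM + 1) / (FPKM + 1)), SCM over DMEM, called at 2-fold. Rows under 1 FPKM in both libraries were left out. No count model or test was used with 1 library per medium. Intervals are 95% exact, from SciPy 1.17.1 under Python 3.11.15.

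The members, the 9 pathway lists and the markers were chosen with earlier results of these data known. Named genes were all members, all genes of the eIF2 and kinase input lists, the 3 rows nearest to Atf4, and up to 4 genes per other list with the largest absolute log2 ratio. Other genes, such as Atf3, Gpt2, Ddit4, Bcl2l11, the PP1 catalytic genes and overlapping genes, were named after their values were seen. Alternatives changed the pseudocount, filter, scaling, unit, fold threshold, use of the interval and the rows counted.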

Additional observations from a re-analysis of the deposited data

How the results depend on the processing

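No paired analysis was possible because each medium had 1 library, and for the same reason no library could be left out. All 10 genes kept a log2 ratio below 0 under the 6 settings of pseudocount, filter, scaling and unit. At least 2-fold lower were 4 of the 10 under every alternative except a 3-fold threshold, which left 3, and 0 were higher under any. Since the 10 genes were chosen with this contrast known, nothing is read from this steadiness. The counts over all rows changed with the setting. Over all rows, 345 were lower and 382 higher. With a pseudocount of 0.1 FPKM these counts were 625 and 681, with 3 FPKM 131 and 148, at 1.5-fold 928 and 974, at 3-fold 87 and 91, and among protein-coding rows 145 and 250. Of the 39 measured genes of the target lists, 25 were lower. At 3-fold 12 were lower, and at 1.5-fold 32 were lower and 2 higher. Fewer or more calls at another threshold or pseudocount follow from its construction. Reads limit Chac1 and Trib3, with 18 and 41 reads in SCM.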

Other observations

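Slc7a11, Cth and Gdf15, known targets of ATF4 or its partners, lay under 1 FPKM in both libraries and so outside the counts of the report. They and Pycr1 were picked after their values were seen. Of the other target-list genes under this limit, Slc7a3 had an SCM to DMEM ratio of 0.366 (95% exact counting interval 0.240 to 0.550). For Bcat1, Slc1a5, Tnfrsf10b and Nupr1 this interval held 1, and Fgf21 had 0 reads in both libraries. Slc7a11, which encodes the cystine carrier that feeds glutathione synthesis, had 0 reads in SCM and 88 reads (0.217 FPKM) in DMEM. With 3 reads allowed for the SCM library, it was at least 37.0-fold lower in SCM, a bound that takes the 88 reads as counted, without their own counting error. Cth, an enzyme gene of cysteine synthesis, had 7 reads in SCM and 44 reads in DMEM, a ratio of 0.126 (95% exact counting interval 0.0480 to 0.282). Gdf15, which encodes a stress-induced hormone, went the other way, with 15 reads (0.221 FPKM) in SCM and 0 reads in DMEM. With 3 reads allowed for the DMEM library, it was at least 3.97-fold higher in SCM, with the 15 reads likewise taken as counted. Pycr1, of proline synthesis, reached 1 FPKM in DMEM alone, with 0.104 FPKM (15 reads) in SCM and 1.14 FPKM (131 reads) in DMEM. Its log2 ratio of -0.96 lay just inside 2-fold.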
